A study of Mus musculus with 2 samples.

Results

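The calcineurin signalling axis was followed through 10 genes in mouse kidneys after acute kidney injury (AKI). They encode calcineurin (*Ppp3ca*, *Ppp3cb* and *Ppp3r1*), nuclear factors of activated T cells (*Nfatc1*, *Nfatc3* and *Nfat5*), regulators of calcineurin (*Rcan1* and *Rcan2*), and the immunophilins cyclophilin A (*Ppia*) and FKBP12 (*Fkbp1a*). The genes were taken by symbol, and all 10 had a row among the 19829 genes of the table. Each of them reached the minimum value for comparison, which 14997 genes in all passed (a normalized value of 1 or more in either library).

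The series held 2 libraries of whole-kidney messenger RNA, 1 per group. WT+AKI came from wild-type kidney, and TG+AKI from kidney with transgenic overexpression of *Inmt* (indolethylamine N-methyltransferase) in proximal tubules. The number of mice behind each library is not given in the sources used here. According to the series design and the methods, mice of both genotypes had received the calcineurin inhibitor voclosporin at 30 mg/kg and were then subjected to ischemia–reperfusion (I/R). The kidneys were taken at 14 weeks of age on a C57BL/6 background, with littermates as controls. The time from I/R to harvest differs between passages of the study, so it is not known here for these libraries. The labels' treatment entry reads as untreated for each sample, and the title of the TG+AKI sample also contains the words conditional knockout. The length of dosing is not given in the same way throughout. The methods give 2 weeks, from 8 to 10 weeks of age, so by them dosing ended before the kidneys were taken. Whether calcineurin was still inhibited at that time was not measured in these libraries. No library without voclosporin, without injury or of uninjured transgenic kidney was analysed here. The comparison is thus one of genotype, with the drug course and the injury shared. The promoter driving the transgene is not given in the sources used here.

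Calcineurin is a phosphatase that is switched on by calcium and calmodulin. It consists of a catalytic A subunit and a regulatory B subunit, and it removes phosphates from NFATc proteins, which then enter the nucleus and activate transcription. Cyclosporin-type drugs such as voclosporin bind cyclophilin A, tacrolimus binds FKBP12, and the drug–immunophilin complexes block calcineurin. RCAN proteins bind calcineurin and restrain it, and a short form of *Rcan1* is itself a classic transcriptional target of NFATc. NFAT5 lacks the calcineurin-binding region of the other family members and responds to osmotic stress, which is why it is well known in the renal medulla.

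The starts of *Rcan1* are shown because this gene carried the widest difference among the 10. *Rcan1* lies on the minus strand at chr16:92391953-92470867 (GRCm38, GENCODE M21). RefSeq sequence of build GRCm38.p6 gives 2 promoter windows for it, each from 250 bases before to 50 bases after a start, and the starts lie 66.1 kb apart. The upstream window is at chr16:92466120-92466419. The internal window is at chr16:92400029-92400328, inside the gene, at the first exon of a shorter transcript and in an intron of the longer ones. Both are printed 5′ to 3′ on the minus strand, with capitals marking the NFAT core GGAAA or its complement TTTCC.
Rcan1, upstream start: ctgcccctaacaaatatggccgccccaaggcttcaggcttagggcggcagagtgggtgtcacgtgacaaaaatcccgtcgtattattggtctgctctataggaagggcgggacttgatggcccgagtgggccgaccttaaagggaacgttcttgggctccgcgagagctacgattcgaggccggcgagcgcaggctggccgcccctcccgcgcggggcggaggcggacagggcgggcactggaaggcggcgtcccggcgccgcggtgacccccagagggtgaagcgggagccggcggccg
Rcan1, internal start: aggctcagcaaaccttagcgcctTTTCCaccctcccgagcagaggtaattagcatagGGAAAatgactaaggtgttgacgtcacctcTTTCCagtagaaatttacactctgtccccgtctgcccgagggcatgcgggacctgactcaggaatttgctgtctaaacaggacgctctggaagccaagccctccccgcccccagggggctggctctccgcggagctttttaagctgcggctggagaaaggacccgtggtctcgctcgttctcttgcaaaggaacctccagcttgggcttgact

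The upstream window held 0 copies of the NFAT core, and the internal window held 3 copies, which begin 227, 193 and 163 bases before the start. The internal window also held 1 copy of the AP-1 motif TGANTCA, which reads the same on both strands and begins 110 bases before the start; the upstream window held 0. At least 3 copies of the NFAT core were present in 9.42% of 32851 mouse promoter windows of the same length, at least 1 copy in 61.3%, and the AP-1 motif in 7.81%. The match is a description of these letters, and the gene-level values below do not separate transcripts of the 2 starts. Of the 10 genes, 8 had a promoter window in the table, with 12 windows in all. Among the others, *Ppp3cb* had 4 copies of the core, the last of them after the start. At least 4 copies were present in 2.65% of all windows. *Fkbp1a* and *Nfat5* had 2 copies each, *Ppia* had 1, *Nfatc3* had 1 in 1 of its windows and *Ppp3r1* had 0. *Rcan2* had 2 copies of the core in 1 of its windows and 1 copy of the AP-1 motif in another.

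The deposited table gives 1 normalized value per gene and library. The values behaved as whole reads multiplied by a constant, so that 1 read stood for a value of 0.0236 in the WT+AKI library and 0.0302 in the other. The recovered totals were 38542764 and 36427421 reads. Paired values and reads are given below with WT+AKI first and TG+AKI second. Each ratio below is TG+AKI over WT+AKI and carries a 95% Clopper–Pearson interval from these reads, which covers counting error only. Since there is 1 library per group, differences between mice could not be measured, no difference has a replicate check and no p-value for the genotype is given. A gene is counted as higher or lower when the values differ by at least 2-fold.

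The libraries differed widely beyond this axis. *Inmt*, the overexpressed gene, had values of 10.4 and 402.8, a ratio of 38.5 (35.1 to 42.5). Of the 14997 genes compared, 1103 (7.35%) were at least 2-fold higher in TG+AKI and 1645 (11.0%) at least 2-fold lower. With equal library totals in place of the deposited scaling, the split was 726 higher and 2372 lower, because every ratio moved by −0.27 on the log2 scale. The median log2 ratio over all of them was −0.02, with the middle 50% of genes between −0.43 and 0.36. The injury markers *Havcr1* (1168.8 and 2.78) and *Lcn2* (249.8 and 1.87) were far lower in TG+AKI. All 6 proximal tubule markers were at least 2-fold higher in TG+AKI under the deposited scaling, with summed values of 2503.8 and 11124.0. With equal library totals *Slc5a2* (log2 ratio 0.93) and *Aqp1* (0.996) came under 2-fold, as did *Kcnj1* of the thick ascending limb (0.82), while *Pdgfra* (−1.004) and *Pdgfrb* (−1.17) of the fibroblast list passed it. The other kidney markers were also present: summed values were 1895.0 and 3113.3 for the thick ascending limb (2 of 4 higher), 343.4 and 396.7 for podocytes (0 of 4 past 2-fold), 227.6 and 243.0 for endothelium (0 of 4) and 384.0 and 232.5 for fibroblasts and smooth muscle (1 of 5 lower, *Dcn*). In whole tissue, fewer cells of a type and less RNA per cell cannot be told apart.

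Of the 10 genes, 2 were at least 2-fold lower in TG+AKI, *Rcan1* and *Nfatc1*, 0 were higher and 8 stayed within 2-fold. These counts stand beside 11.0% of all genes lower and 7.35% higher. The median log2 ratio of the 10 was −0.10. Reads differed between the 2 libraries by a two-sided exact conditional binomial test, Benjamini–Hochberg adjusted over all genes, for 7 of the 10 and for 73.7% of all genes. The adjusted p of this test, which compares the libraries and not the genotypes, was 0.277 for *Ppp3ca*, 0.137 for *Ppp3cb* and 0.497 for *Rcan2*. The plot of values by library shows the wide gap of *Rcan1* beside the near-overlap of the calcineurin subunits.

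**Figure D1:**
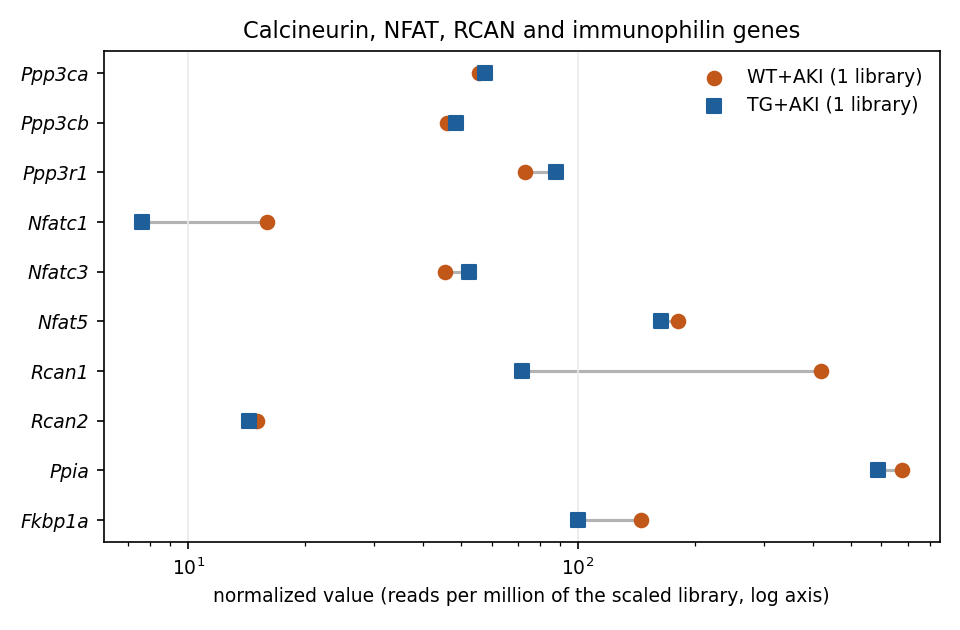
Normalized value of each of the 10 genes (horizontal log axis) in WT+AKI (circles) and TG+AKI (squares), 1 library each, joined by a grey line. Rcan1 falls from 419.8 to 72.0 and Nfatc1 from 15.9 to 7.61, whereas the symbols of Ppp3ca, Ppp3cb and Rcan2 nearly overlap.

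The catalytic subunits of calcineurin were close in the 2 libraries. *Ppp3ca* (calcineurin Aα, chr3:136670124-136937727) had values of 55.6 (2358 reads) and 57.7 (1911 reads), a ratio of 1.04 (0.976 to 1.10). *Ppp3cb* (calcineurin Aβ, chr14:20499364-20546573) had values of 46.1 and 48.7, a ratio of 1.06 (0.988 to 1.13). Both intervals include 1 under the deposited scaling. With equal library totals both directions turned, to log2 ratios of −0.22 and −0.20, so the side of 1 on which these genes lie depends on the scaling. The balance between both catalytic genes, which does not depend on library scaling, stood at 1.21 reads of *Ppp3ca* per read of *Ppp3cb* in the wild-type kidney and 1.18 in the transgenic one, a ratio of 0.983 (0.899 to 1.07). *Ppp3cc*, the third catalytic gene, is not among the 10; its values were 19.3 and 15.5, a ratio of 0.802 (0.717 to 0.897).

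The regulatory subunit *Ppp3r1* (calcineurin B, chr11:17159263-17200375) had values of 73.1 and 88.0, a ratio of 1.20 (1.14 to 1.27). This direction was not kept with equal library totals. Against *Ppp3ca* within each library, *Ppp3r1* was 1.16-fold higher in TG+AKI (1.07 to 1.26), and against *Ppp3cb* it was 1.14-fold higher (1.05 to 1.24), values free of scaling. Exons of *Ppp3r1* overlap those of *Wdr92* on the same strand, with 13.2% of its 100-base words shared, so its count may include reads of that gene. *Ppp3r2*, the testis-type regulatory subunit, had no row. Of the 4 subunit genes compared, 0 were past 2-fold in either direction, beside 7.35% of all genes higher and 11.0% lower. Their median log2 ratio was 0.07.

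Among the NFAT genes, *Nfatc1* was the lower one in TG+AKI. *Nfatc1* (chr18:80606205-80713071), best known from lymphocytes, osteoclasts and heart valves, had values of 15.9 (675 reads) and 7.61 (252 reads), 2.09-fold lower (1.81 to 2.43). The interval includes 2-fold, and with a pseudocount of 1 the gene was within 2-fold. *Nfatc3* (chr8:106058840-106130537) had values of 45.5 and 52.6, a ratio of 1.16 (1.08 to 1.24), whose direction was turned by equal library totals. *Nfat5* (chr8:107293470-107379517), the osmotic stress factor, had values of 180.1 and 163.5, a ratio of 0.908 (0.877 to 0.940).

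The NFAT genes did not differ between the libraries by 1 common factor. Reads of *Nfatc1* per read of *Nfatc3* were 0.350 and 0.145, a 2.42-fold drop (2.07 to 2.84), and against *Nfat5* the drop was 1.90-fold (1.64 to 2.20). The remaining family members are not among the 10. *Nfatc2* had values of 8.18 and 4.32, 1.90-fold lower (1.56 to 2.32), within 2-fold here, but past it with equal library totals (log2 ratio −1.20) and with the median ratio of well-expressed genes set to 1 (−1.07). Which of *Nfatc1* and *Nfatc2* is past 2-fold thus depends on the processing. Reads of *Nfatc2* per read of *Nfatc3* dropped 2.19-fold (1.79 to 2.69), a pair chosen after the values were seen. *Nfatc4* was sparse, with 113 and 89 reads and a ratio of 1.01 (0.755 to 1.34). Exons of *Nfatc3* overlap *Esrp2* on the opposite strand, and whether the counting used the strand is not given in the sources used here.

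*Nfatc1* and *Nfatc2* are abundant in immune cells, and the markers of such cells are given beside them. T cell markers were near the limit of detection in both libraries, with summed values of 2.78 (118 reads) and 3.50 (116 reads) over the 6 of 7 markers with a row, from 4 to 51 reads each. *Cd3e* had 4 and 9 reads. B cell markers summed to 1.46 and 1.87, with 62 reads in each library over 4 of 4 markers. Macrophage markers had summed values of 144.8 and 66.8, and 5 of 6 were at least 2-fold lower, beside 11.0% of all genes. *Cd68* (37.1 and 1.39) and *Itgam* (19.9 and 1.06) had the widest gaps, while *Csf1r* had 37.5 and 43.0. The part of macrophages in the values of *Nfatc1* was not tested.

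*Rcan1*, which encodes the main inducible regulator of calcineurin, was the most changed of the 10. Its values were 419.8 (17798 reads) and 72.0 (2385 reads), 5.83-fold lower (5.58 to 6.09), a log2 ratio of −2.54. The log2 ratio lay between −2.82 and −2.53 under the other 3 scalings. No other annotated gene shares its 100-base words or overlaps its exons. *Rcan2* (chr17:43801351-44039516), the paralog that responds to thyroid hormone, had values of 15.0 and 14.3, a ratio of 0.955 (0.846 to 1.08), and its log2 ratio moved from −0.07 to −0.34 with equal library totals. WT+AKI held 27.9 reads of *Rcan1* per read of *Rcan2* and TG+AKI held 5.02, a 5.56-fold drop (4.90 to 6.31). Per read of *Ppp3ca*, *Rcan1* dropped from 7.55 to 1.25 reads, a 6.05-fold drop (5.62 to 6.51) against a catalytic subunit that it binds. Proximal tubule, macrophage and injury markers differed between the same 2 libraries, and their part in the value of *Rcan1* was not tested.

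Other proteins that bind or restrain calcineurin did not share this gap. *Rcan3* had values of 24.1 and 24.9, a ratio of 1.03 (0.942 to 1.13). *Cabin1*, which encodes the nuclear inhibitor cain, had 51.6 and 52.7, a ratio of 1.02 (0.959 to 1.09). *Chp1*, a calcineurin B homologue, had 207.3 and 191.3, a ratio of 0.923 (0.893 to 0.953). The anchor *Akap5* rested on 28 and 35 reads, with a ratio of 1.60 (0.946 to 2.73), and *Chp2* had 4 and 2 reads and did not pass the minimum value. Of the 6 genes compared in this list, *Rcan1* was the 1 that was lower and 0 were higher, beside 11.0% and 7.35% of all genes. The median log2 ratio of the list was −0.02.

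**Figure D2:**
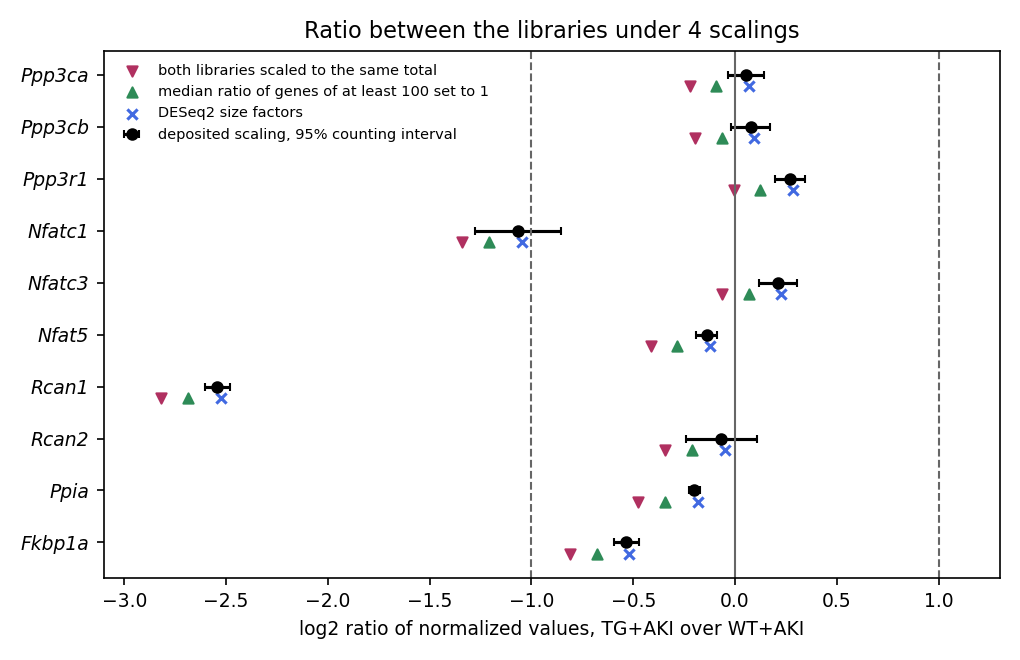
Log2 ratio of normalized values, TG+AKI over WT+AKI, for the 10 genes. Black points are the deposited scaling with 95% counting intervals, coloured symbols are 3 other scalings, and dashed lines mark 2-fold. Rcan1 lies at −2.54 and stays left of the 2-fold line under every scaling shown, Nfatc1 lies near that line, and Ppp3ca, Ppp3cb, Ppp3r1 and Nfatc3 cross 0 with equal library totals.

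The immunophilins that receive the drugs had lower values in TG+AKI, short of 2-fold. *Ppia* (cyclophilin A, chr11:6415443-6419817), the receptor of cyclosporin-type drugs, had values of 676.4 and 589.0, a ratio of 0.871 (0.855 to 0.887). It is a gene with many processed pseudogenes, and 11.8% of its 100-base words occur in 16 other annotated genes, so its count may be affected by them. The size of that effect on the reads was not measured. *Fkbp1a* (FKBP12, chr2:151542483-151561692), the receptor of tacrolimus and rapamycin, had values of 145.1 and 100.1, 1.45-fold lower (1.39 to 1.51). Reads of *Ppia* per read of *Fkbp1a* were 4.66 and 5.88, so their balance moved 1.26-fold (1.21 to 1.32) toward *Ppia*.

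Levels were compared between genes per kilobase of the longest annotated transcript. In WT+AKI the order was *Ppia* at 237.1, *Rcan1* at 180.6, *Fkbp1a* at 72.2, *Ppp3r1* at 25.6, *Nfat5* at 13.4, *Ppp3cb* at 12.0, *Ppp3ca* at 11.7, *Nfatc3* at 7.60, *Rcan2* at 4.54 and *Nfatc1* at 3.32, in normalized value per kb. In that order, *Ppp3cb* and *Ppp3ca* were the 1 pair of neighbours whose counting intervals overlapped. In TG+AKI, *Ppia* remained first at 206.4, followed by *Fkbp1a* at 49.8, *Rcan1* at 31.0 and *Ppp3r1* at 30.8, the last pair overlapping. *Ppp3cb* (12.7), *Nfat5* (12.2) and *Ppp3ca* (12.1) overlapped in turn, and *Nfatc3* (8.80), *Rcan2* (4.33) and *Nfatc1* (1.59) closed the order. *Rcan1* per kb was thus 7.07 times the level of *Ppp3r1* in WT+AKI and 1.01 times in TG+AKI. Per kb of all annotated exons, *Ppp3r1* (27.3) came before *Fkbp1a* (26.0) and *Rcan1* (23.3) in TG+AKI. *Nfat5* (8.90), *Ppp3ca* (5.78) and *Ppp3cb* (5.53) followed. In WT+AKI, *Rcan1* (136.1) stayed above *Ppp3r1* (22.6), and *Ppp3ca* (5.57) came before *Ppp3cb* (5.24). The order of these genes, and the near-equal levels of *Rcan1* and *Ppp3r1* in TG+AKI, thus depend on the length used.

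**Figure D3:**
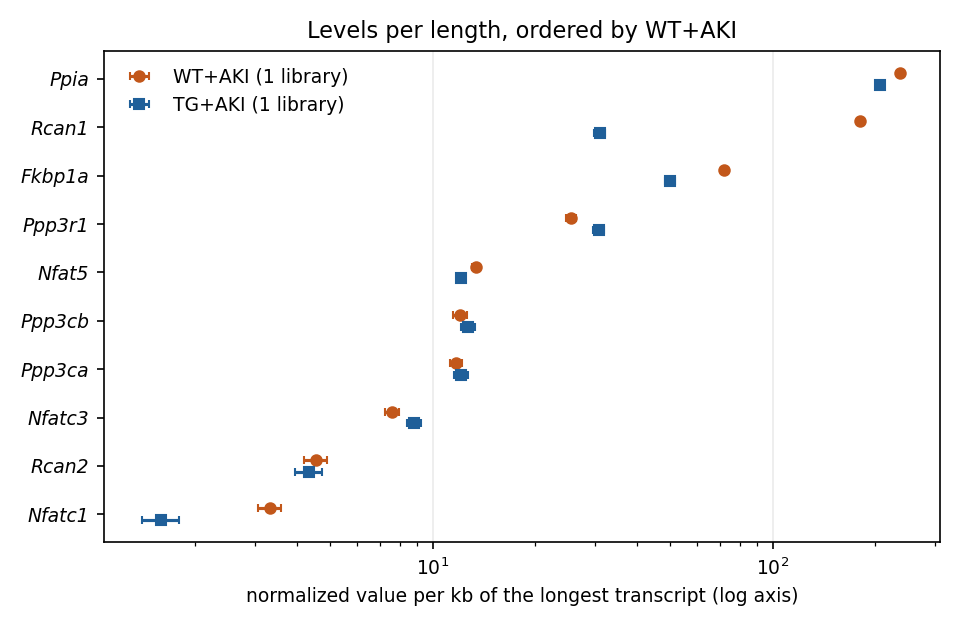
Normalized value per kb of the longest transcript (horizontal log axis) of the 10 genes in WT+AKI (circles) and TG+AKI (squares), ordered by WT+AKI, with 95% exact Poisson intervals for counting error, most of them narrower than the symbol. Rcan1 stands second in WT+AKI at 180.6 and drops to 31.0 in TG+AKI, next to Ppp3r1 at 30.8.

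In the wider cyclophilin family the differences were small. Of 16 cyclophilins compared, 0 were past 2-fold in either direction, beside 7.35% of all genes higher and 11.0% lower. Their median log2 ratio was −0.07, beside −0.02 over all genes. The widest differences were those of *Ppif*, the mitochondrial cyclophilin D, with values of 31.9 and 48.5 and a ratio of 1.52 (1.41 to 1.64), and of the spliceosomal *Ppie*, with 15.8 and 11.1, 1.42-fold lower (1.25 to 1.62). *Cwc27* (12.3 and 9.24) had a ratio of 0.749 (0.648 to 0.864), and *Ppic* (56.56 and 75.01) a ratio of 1.33 (1.25 to 1.40). *Ppie* and *Cwc27* each overlap a gene on the opposite strand, as does *Ppif*.

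Of 15 FKBP genes, 14 had a row and 13 were compared, with a median log2 ratio of −0.05. Of these 13, 1 was higher and 1 lower, beside 7.35% and 11.0% of all genes. *Fkbp4* (FKBP52), a co-chaperone of steroid receptors, had values of 104.1 and 222.2, a ratio of 2.13 (2.06 to 2.22). *Fkbp5* (FKBP51), the counterpart of FKBP52 on the same receptors and a gene induced by glucocorticoids, had values of 217.1 and 111.8, 1.94-fold lower (1.87 to 2.02). *Fkbp4* fell under 2-fold with equal library totals, at a log2 ratio of 0.82, and at 0.95 with the median ratio of well-expressed genes set to 1. Under the same scalings *Fkbp5* passed 2-fold, at −1.23 and −1.10, so that the list then held 0 higher and 2 lower genes. The balance of both genes is free of scaling: 0.479 reads of *Fkbp4* per read of *Fkbp5* in the wild-type kidney and 1.99 in the transgenic one, a ratio of 4.15 (3.93 to 4.37), a pair chosen after the values were seen. *Fkbp11*, of the endoplasmic reticulum, had 90 and 31 reads and was 2.27-fold lower (1.49 to 3.53). It passed the minimum value through WT+AKI alone, so its place among lower genes was in part set by the filter. *Fkbp10* was 1.62-fold lower (1.36 to 1.94).

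Upstream of calcineurin, the genes of calcium entry and calmodulin went in both directions. Of 11 compared, 2 were at least 2-fold lower and 0 higher, beside 11.0% and 7.35% of all genes, with a median log2 ratio of −0.37. The store-operated channel gene *Orai2* had values of 9.03 and 3.08, 2.93-fold lower (2.35 to 3.69). The inositol trisphosphate receptor *Itpr3* had 21.8 and 9.93, 2.19-fold lower (1.93 to 2.49). Its relative *Itpr2* went the other way, with 50.3 and 85.5 and a ratio of 1.70 (1.61 to 1.80). *Calm2*, which encodes calmodulin, had 204.9 and 125.6, 1.63-fold lower (1.57 to 1.69).

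Kinases that oppose calcineurin by phosphorylating NFATc, and partners of NFATc, were mostly within 2-fold. Of 8 compared, 2 were lower and 0 higher, beside 11.0% and 7.35% of all genes, with a median log2 ratio of −0.16. *Homer3*, a scaffold protein that competes with calcineurin for NFATc, had values of 45.4 and 8.58, 5.29-fold lower (4.67 to 6.01), a gap of nearly the size of that of *Rcan1*. The casein kinase *Csnk1e* had 33.5 and 16.4, 2.04-fold lower (1.85 to 2.26), and *Csnk1d* a ratio of 0.810 (0.773 to 0.849). *Dyrk2* had a ratio of 1.17 (1.10 to 1.24), with its direction turned by equal library totals. Exons of *Homer3* overlap *Ddx49* on the opposite strand. Among 10 other substrates of calcineurin 0 passed 2-fold, beside the same shares of all genes, and the median log2 ratio was −0.12. The widest in that list were the transcription factors *Mef2d* (92.8 and 60.1, ratio 0.647, 0.613 to 0.683) and *Mef2a* (82.1 and 63.1, ratio 0.768, 0.727 to 0.811), the coactivator *Crtc3* (ratio 0.828, 0.734 to 0.934) and the mitochondrial fission enzyme *Dnm1l* (ratio 0.854, 0.815 to 0.895).

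Known targets of NFATc included genes with far lower values in TG+AKI. Of 13 on the list, 7 had a row and 5 passed the minimum value. *Vcam1* and *Nr4a1* reached a value of 1 in both libraries and were at least 2-fold lower in TG+AKI, whereas *Egr2*, *Ptgs2* and *Tnf* passed through WT+AKI alone, so their place among lower genes was in part set by the filter and no count over the list is read from them. The T cell cytokine and ligand genes *Il2*, *Il4*, *Ifng*, *Csf2*, *Fasl* and *Cd40lg* had no row. *Egr2*, an early growth response factor, had values of 12.5 (528 reads) and 0.362 (12 reads), 34.4-fold lower (19.5 to 66.9). *Ptgs2*, which encodes cyclooxygenase-2, had 7.03 and 0.634, 11.1-fold lower (7.12 to 18.2). The adhesion molecule gene *Vcam1* had 55.6 and 12.4, 4.48-fold lower (4.03 to 4.98).

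*Nr4a1*, an immediate early orphan receptor, had values of 19.6 and 5.19, 3.78-fold lower (3.20 to 4.48). *Tnf* had 44 and 8 reads, 4.30-fold lower (2.0 to 10.6). These ratios depend on the pseudocount at low values: with a pseudocount of 1 the log2 ratio of *Egr2* went from −5.10 to −3.30 and that of *Tnf* from −2.10 to −0.71, and with a pseudocount of 10 *Ptgs2* (−0.68), *Nr4a1* (−0.96) and *Tnf* (−0.11) were within 2-fold. *Egr3* (14 and 7 reads) and *Trpc6* (8 and 15 reads) did not pass the minimum value, with ratios of 0.640 (0.219 to 1.69) and 2.40 (0.955 to 6.54), both intervals including 1. These targets are also induced by other signals of injury and inflammation. The injury markers *Havcr1* and *Lcn2* were lower in the same library. Of the macrophage markers, 5 of 6 were at least 2-fold lower there, beside 11.0% of all genes, and *Csf1r* was not. The parts of injury, macrophages and NFATc in these values were not tested.

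Targets of NFAT5, the calcineurin-independent member, did not move in 1 direction. Of 8 compared, 1 was higher and 1 lower, beside 7.35% and 11.0% of all genes, with a median log2 ratio of 0.17. *Slc6a12*, the betaine transporter, had values of 0.708 (30 reads) and 4.56 (151 reads), a ratio of 6.44 (4.33 to 9.88). It passed the minimum value through TG+AKI alone, so its place as the higher gene was in part set by the filter. *Slc14a2*, the urea transporter of the inner medulla, had 90.6 and 40.9, 2.22-fold lower (2.08 to 2.36). The taurine transporter *Slc6a6* had 417.4 and 643.7, a ratio of 1.54 (1.51 to 1.57), and the heat shock gene *Hspa1b* was 1.66-fold lower (1.54 to 1.80), past 2-fold with equal library totals (log2 ratio −1.01), with 49.9% of its words shared with other *Hspa1* genes. The collecting duct markers, from the tubule where NFAT5 targets are prominent, summed to 281.3 and 354.1, with 0 of 4 past 2-fold. *Aqp2* is on both lists and gave 153.53 and 178.25 of these sums, so the markers are not independent of the targets. Its direction turned with equal library totals (log2 ratio −0.06).

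**Figure D4:**
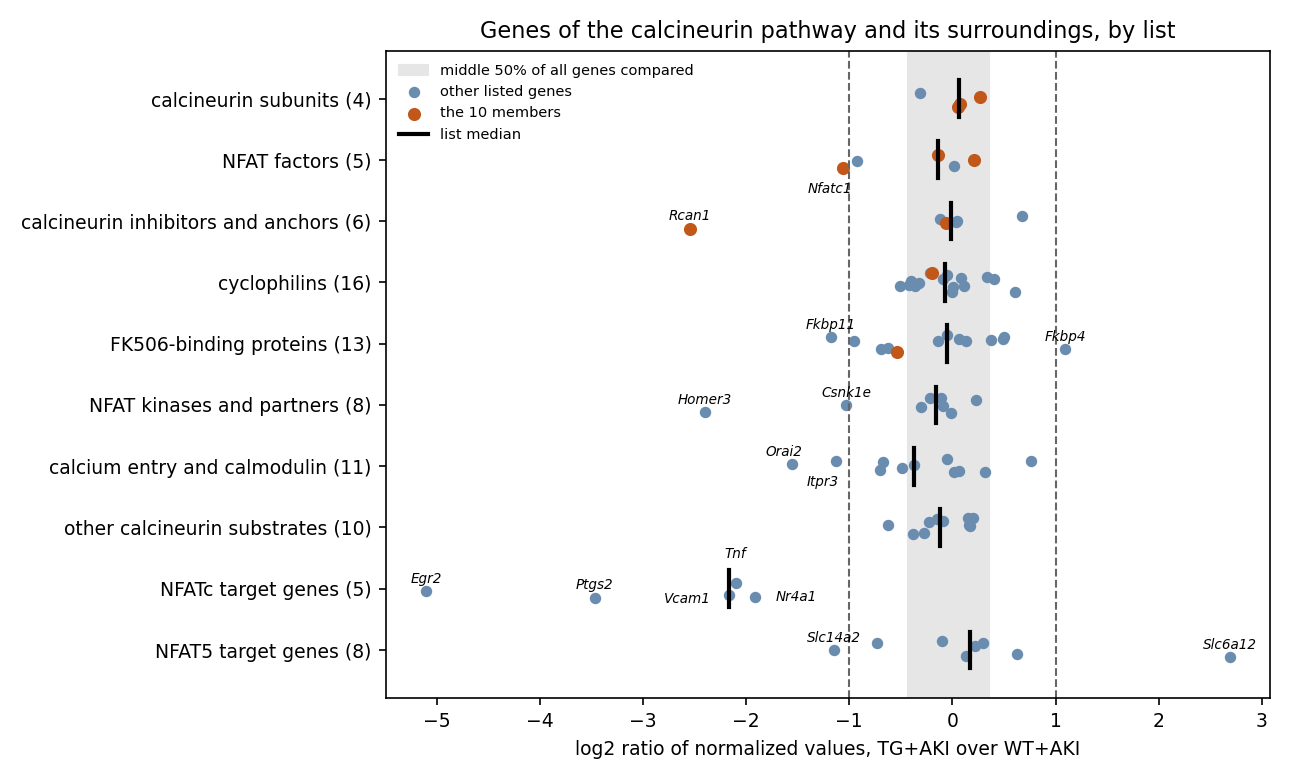
Log2 ratio, TG+AKI over WT+AKI, of every gene compared in 10 lists of the calcineurin pathway and its surroundings, with the number of genes in brackets. Orange points are the 10 genes, blue points the other listed genes, black bars the list medians, the grey band the middle 50% of all genes compared and dashed lines 2-fold, and genes past 2-fold are named. The 5 NFATc target genes that passed the minimum value lie between −5.10 and −1.92. Of these, Egr2, Ptgs2 and Tnf passed through WT+AKI alone, and Egr3 and Trpc6 did not pass and are not shown. The position of that list was thus in part set by the filter and is not read against the other lists.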

How the data were processed

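Libraries were prepared from left kidney RNA with the TruSeq Stranded mRNA kit and sequenced on a NovaSeq instrument. Per the submitters' processing notes, the tools were FastQC, STAR 2.7.3a, HTSeq, Cufflinks 2.2.1, DESeq2 and edgeR, on build mm10; the gene annotation and the strand setting are not given in the sources used here. The deposited values are a normalized signal, which the authors made from read counts per gene. Dividing each column by its step gave whole reads (100% of values within 0.01 read). The deposited scaling equalled that of edgeR's TMM factors (1.10 and 0.909), whereas the study's methods name DESeq2, whose size factors on these reads were 1.14 and 0.879. No listed gene was at 0 reads, and genes with no row are not analysed here.

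Ratios were taken without a pseudocount, over genes whose value reached 1 in either library, and called at 2-fold. Read counts were compared by an exact binomial test conditional on the sum of both (two-sided), adjusted by Benjamini–Hochberg (threshold 0.05), which compares the 2 libraries and not the genotypes. Ratios between 2 genes used the odds ratio of their reads. The pairs *Rcan1* with *Ppp3ca* and *Ppia* with *Fkbp1a* were not among the pairs named in the plan. The ratios of single genes, their intervals, the 2-fold call and the binomial test were tested on simulated reads. Ratios between 2 genes, levels per kb, the other scalings, shared words and motif counts were not tested in that way. The 10 genes, the pathway lists and the marker lists were chosen with earlier results of these data known. The 10 genes, all genes of lists with 7 or fewer rows, and in longer lists the 4 widest ratios and any past 2-fold were named. Coordinates, lengths and shared 100-base words came from GENCODE M21 (GRCm38). Alternatives were pseudocounts of 1 and 10, scaling to the same total, by centring the ratios of genes with values of 100 or more, or by DESeq2 size factors, no filter, a filter of 10, and the binomial test added to the 2-fold rule. Python 3.11.15, scipy 1.17.1, pandas 2.3.3, R 4.3.3, edgeR 4.0.16 and DESeq2 1.42.0 were used.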

Additional observations from a re-analysis of the deposited data

How the results depend on the processing

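No paired analysis was possible because each group has 1 library and the labels carry no replicate numbers. *Rcan1* was at least 2-fold lower under each of the 5 pseudocounts and scalings tried. With a pseudocount of 1 or of 10, *Nfatc1* came under 2-fold, which left 1 of the 10 genes lower in place of 2; no alternative made any of the 10 at least 2-fold higher. The median log2 ratio of the 10 was −0.10, and it was −0.38 with both libraries scaled to the same total and −0.25 with the median ratio of genes of at least 100 set to 1. Those scalings moved every gene by −0.27 and −0.14 on the log2 scale, and the first turned the direction of *Ppp3ca*, *Ppp3cb*, *Ppp3r1* and *Nfatc3*, the other that of *Ppp3ca* and *Ppp3cb*. Over all genes, 1103 were higher and 1645 lower; with the same total 726 were higher and 2372 lower, with a pseudocount of 10 there were 372 and 408, with no filter 1821 and 2489 of 19829 genes, and with a filter of 10 there were 629 and 790 of 10294 genes. Of the 90 genes of the pathway lists with a row, named above or not, 68 kept their direction under all 5 pseudocounts and scalings. Beyond the 10, *Fkbp11*, *Csnk1e* and *Tnf* came within 2-fold with a pseudocount of 1, and *Orai2*, *Itpr3*, *Ptgs2*, *Nr4a1*, *Slc6a12* and *Slc14a2* did so with a pseudocount of 10. Depth limits the sparse genes (*Akap5*, *Chp2*, *Egr3*, *Trpc6*, *Tnf* and the T and B cell markers), whereas for the 10 genes the lack of a second library per group is the limit.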
